A study of Mus musculus with 6 samples.

Results

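The HtrA genes encode a family of serine proteases that carry a trypsin-like protease domain followed by a PDZ domain. The family in gastrocnemius muscle was taken as the genes named Htra1 to Htra4 in the deposited count table, with the transcripts listed for them. All 4 were found among 24054 genes, and all 4 passed the filter on low counts that left 12660 genes for testing. The family was selected on the fold change and adjusted p of Htra4 between the genotypes compared here, so its values in that comparison are a description and carry no test. Htra1, Htra2 and Htra3 came in by family name only.

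RNA-seq was performed on gastrocnemius of male C57BL/6 mice, with 3 libraries from MI4KO mice and 3 from MI4OE mice. MI4KO mice carry Irf4 flox/flox alleles and Myl1-Cre, and therefore lack the transcription factor IRF4 in skeletal muscle fibres. MI4OE mice carry Myl1-Cre and the Rosa26-LSL-Irf4 allele, and overexpress Irf4 in the same fibres. Myl1-Cre is common to both groups, and cells other than muscle fibres keep their own Irf4 gene in both. The diet is in doubt, as it is high fat by the labels. The study's text describes chow for its metabolic measurements and gives no diet for the sequenced muscles. No age is labelled. No gastrocnemius of wild-type or flox mice was analysed here, so each value below is a difference between a knockout and an overexpressor, and which of them departs from normal muscle cannot be told apart. The labels do not say whether each library came from a separate mouse. If they did not, p-values measure only technical spread.

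HTRA1, HTRA3 and HTRA4 are secreted proteins. At their N-terminus they have a segment related to the insulin-like growth factor binding proteins (IGFBPs) and a Kazal-type segment, and HTRA1 and HTRA3 are known to cleave matrix proteins and to dampen TGF-beta signalling. HTRA2, also called Omi, is the mitochondrial member. It lies between the mitochondrial membranes, where it takes part in protein quality control, and after release into the cytosol it binds and cuts inhibitor of apoptosis proteins. HTRA4 is best known from the placenta.

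The stretch that makes these proteins proteases is shown first, because it is what the members have in common. The coding sequence around the codon of the catalytic serine was read from GENCODE transcripts of the mouse genome (GRCm38) that were matched by RefSeq accession, and the serine codon is in capitals. Each stretch has 39 bases, written 5′ to 3′ on the coding strand, and spans an intron.
Htra1, NM_019564, chr7:130979487-130979981, plus strand: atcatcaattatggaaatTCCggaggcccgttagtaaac
Htra2, NM_019752, chr6:83053041-83053337, minus strand: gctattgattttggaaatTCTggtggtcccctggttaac
Htra3, NM_030127, chr5:35665417-35666058, minus strand: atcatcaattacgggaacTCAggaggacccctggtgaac
Htra4, NM_001081187, chr8:25032963-25033572, minus strand: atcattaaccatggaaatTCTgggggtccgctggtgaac

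The serine is codon 328 in Htra1, 306 in Htra2, 311 in Htra3 and 332 in Htra4. In Htra1, Htra3 and Htra4 the stretch runs across the junction of exons 4 and 5. In Htra2 it runs across the junction of exons 3 and 4. The reading frames hold 480 codons in Htra1, 458 in Htra2, 459 in the long Htra3 transcript and 483 in Htra4. Although the proteins are related, their transcripts share no identical stretch as long as a read of 50 bases. The longest run of identical bases between any pair of members was 17, on either strand, with the long transcript taken for Htra3. Reads aligned with mismatches were not examined.

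Irf4 counts set the genotype groups apart in each library. Irf4 had 6, 0 and 2 expected counts in MI4KO replicates 1, 2 and 3, and at least 2864 in each MI4OE library. Total expected counts per library were between 18828605 and 29239585. Counts scaled to library size with TMM factors (CPM) were used to compare a gene between libraries, and the length-adjusted abundances deposited by the authors (TPM) to compare genes with each other. A count of 3 in a library, taken as the floor of detection, corresponds to 0.101 to 0.148 CPM, and each HtrA gene lay far above it. Markers of fast fibres summed to 230039 CPM in MI4KO replicate 1, to 126100 CPM in MI4OE replicate 1 and to between 171088 and 183311 CPM in the other 4 libraries, so those 2 libraries stood apart. In MI4OE replicate 1 the slow-fibre markers summed to 6265 CPM, against 35.4 and 565 CPM in MI4OE replicates 2 and 3 and 23.5 to 110 CPM in MI4KO.

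Htra4 was the member with a large difference. Its level was 17.6, 28.5 and 18.3 CPM in MI4KO replicates 1, 2 and 3, against 3.10, 3.15 and 2.74 CPM in the MI4OE replicates. Each MI4OE library lay below each MI4KO library, and the MI4OE libraries were close to each other. The means were 21.5 ± 6.10 CPM (SD, n = 3) and 2.99 ± 0.223 CPM (SD, n = 3), so the coefficient of variation was 28.4% in MI4KO and 7.45% in MI4OE. The level in MI4OE was thus 7.15-fold lower, with a fitted log2 fold change of -2.84 and a standard error of 0.24. These libraries held 430, 719 and 544 counts of Htra4 in MI4KO, and 63, 90 and 62 in MI4OE. Across all genes tested, 0.0237% had an adjusted p under 0.05 by edgeR's quasi-likelihood test, and 5.48% were lower in MI4OE without overlap between the groups. Htra4 was one of both, which is how the family was chosen. The call was lost in 7 of 15 alternatives, 4 of them fits without 1 library, namely MI4KO replicate 1 or any of the 3 MI4OE replicates, while the value stayed below 0 in all 15.

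Htra1 encodes a secreted protease of the extracellular matrix, and its level varied widely within both groups. Its level was 65.7, 34.4 and 33.8 CPM in MI4KO replicates 1, 2 and 3, and 21.1, 53.3 and 32.0 CPM in the MI4OE replicates. The groups overlapped widely, with means of 44.6 ± 18.3 and 35.5 ± 16.4 CPM (SD, n = 3 each). The log2 fold change was -0.33, with a 95% interval from -1.23 to 0.58 (edgeR quasi-likelihood test, adjusted p 0.883). Its sign turned without MI4KO replicate 1, where the value was 0.055, and the value shrank to -0.068 without MI4OE replicate 1. It was -0.75 without MI4OE replicate 2, -0.50 without MI4KO replicate 2 and -0.51 without MI4KO replicate 3. Htra1 was highest in MI4KO replicate 1 and lowest in MI4OE replicate 1. These libraries also had the highest and the lowest sum of fast-fibre markers. The part of fibre type in the values of Htra1 was not tested.

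Htra2, the mitochondrial member, measured 10.2, 7.69 and 11.6 CPM in MI4KO replicates 1, 2 and 3. In MI4OE it was at 18.9, 8.60 and 11.8 CPM. One library, MI4OE replicate 1, lay above the others, which shared one range. The log2 fold change was 0.41, with a 95% interval from -0.30 to 1.12 (edgeR quasi-likelihood test, adjusted p 0.830). It was 0.64 without MI4OE replicate 2, and 0.049 without MI4OE replicate 1, the library rich in slow-fibre markers. The part of fibre type in this value was not tested.

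Htra3 encodes the secreted protease closest in layout to HTRA1. Its level was 16.5, 13.3 and 36.0 CPM in MI4KO replicates 1, 2 and 3. In MI4OE it was at 36.2, 19.4 and 29.5 CPM. MI4KO replicate 3 and MI4OE replicate 1 reached the same level, and the groups overlapped. The log2 fold change was 0.37, with a 95% interval from -0.56 to 1.29 (edgeR quasi-likelihood test, adjusted p 0.875). Leaving out MI4KO replicate 3 gave 0.91, and leaving out MI4KO replicate 2 gave 0.098. Of all genes tested, 7.58% had an unadjusted p under 0.05, and none of Htra1, Htra2 and Htra3 was among them with all 6 libraries. Without MI4KO replicate 3, Htra3 had an unadjusted p of 0.0189 in edgeR's quasi-likelihood test and an adjusted p of 0.541. Each of these 3 intervals spans changes in both directions, so 3 libraries per group leave a moderate difference undetectable.

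**Figure D1:**
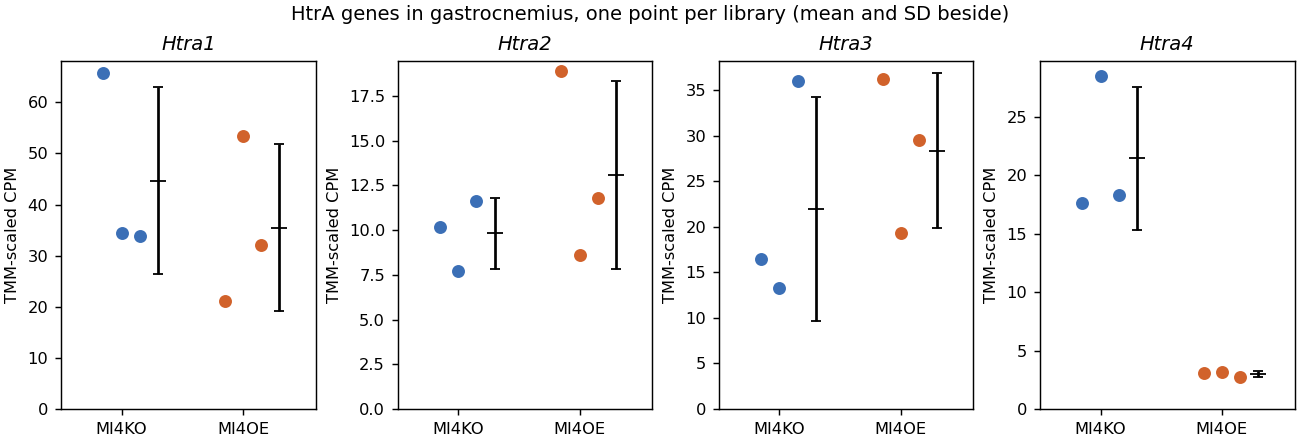
TMM-scaled CPM of Htra1, Htra2, Htra3 and Htra4 (vertical axes, from 0) in MI4KO and MI4OE gastrocnemius; each point is a library, in the order of replicates 1, 2 and 3, and the bar beside them is the mean with its SD (n = 3). The points of Htra4 form 2 separate groups, with 17.6 CPM or more in MI4KO and 3.15 CPM or less in MI4OE, while the points of the other members overlap.

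Compared per length, Htra1 was the most abundant member in 5 of 6 libraries. In MI4KO the mean TPM was 34.8 ± 8.86 for Htra1, 16.6 ± 7.33 for Htra4, 13.4 ± 7.53 for Htra3 and 9.40 ± 1.64 for Htra2 (SD, n = 3 each). Htra1 lay above the next gene by more than the SD of either, whereas Htra4, Htra3 and Htra2 each differed from the next by less than the larger SD. In MI4OE the order was Htra1 at 30.5 ± 16.0, Htra3 at 17.6 ± 4.11, Htra2 at 12.9 ± 4.04 and Htra4 at 2.34 ± 0.240 TPM (SD, n = 3 each). There the gap between Htra2 and Htra4 exceeded both SDs, that between Htra3 and Htra2 exceeded them slightly, and that between Htra1 and Htra3 was within the SD of Htra1. Htra4 was the lowest member in 3 of 3 MI4OE libraries and in 0 of 3 MI4KO libraries. The exception to the leading place of Htra1 was MI4OE replicate 1, where Htra3 at 20.6 and Htra2 at 17.2 TPM were above Htra1 at 16.1 TPM.

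The share of Htra4 in the summed TPM of the family came to 15.3%, 33.1% and 18.5% for MI4KO replicates 1, 2 and 3, but to 3.92%, 3.61% and 3.59% for the MI4OE replicates. The family as a whole came to 74.2 ± 1.38 TPM in MI4KO and 63.4 ± 8.35 TPM in MI4OE (SD, n = 3 each). Without Htra4 the sums were 57.6 ± 6.24 and 61.1 ± 8.12 TPM (SD, n = 3 each), a difference within the spread.

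**Figure D2:**
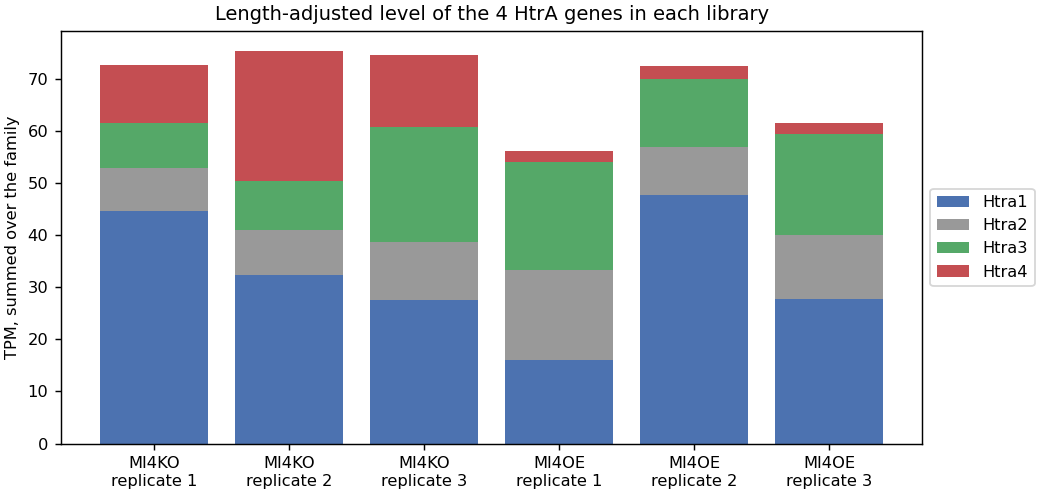
Stacked TPM of the 4 HtrA genes in each of the 6 libraries (vertical axis, TPM summed over the family, from 0). The segment of Htra4 is 11.1 to 25.0 TPM high in MI4KO and 2.20 to 2.62 TPM high in MI4OE, and the bars reach 56.1 to 75.4 TPM.

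Htra1, Htra2 and Htra4 each had a single listed transcript, and Htra3 had 2. The Htra3 transcripts share 1069 coding bases and part at exon 7. NM_030127, the long form, goes on for 308 coding bases, and NM_001042615, the short form, for 20 before its stop codon. The short protein ends before the PDZ domain. Both are shown across the point where they part, with 30 shared bases in lower case and the bases of their own in capitals, 5′ to 3′ on the minus strand of GRCm38 and joined over an intron.
Htra3 long, NM_030127, chr5:35655563-35663992: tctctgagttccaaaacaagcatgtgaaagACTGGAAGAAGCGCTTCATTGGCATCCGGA
Htra3 short, NM_001042615, chr5:35662245-35663992: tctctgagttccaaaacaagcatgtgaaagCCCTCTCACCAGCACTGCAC

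The long transcript was the main form in each library. It took 77.9%, 88.2% and 87.8% of the Htra3 counts in MI4KO replicates 1, 2 and 3, against 91.1%, 91.2% and 87.1% in the MI4OE replicates. MI4KO replicate 1 was the lowest, with an exact Clopper-Pearson 95% interval from 73.5% to 81.9%, which covers counting error only. Its interval lay below those of the other libraries, which started at 84.1% or higher. The group means were 84.6 ± 5.82% and 89.8 ± 2.37% (SD, n = 3 each). The difference of 5.16 percentage points had a two-sided exact permutation p of 0.3, where 0.1 is the smallest that 3 against 3 libraries allow, and it was 1.80 points without MI4KO replicate 1. Between the 2 forms RSEM divided the reads by an estimate, because most of their length is common.

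The counts of Htra2 were not whole numbers, which RSEM gives where reads are divided between genes. In each of 6 libraries the counts of Htra2 and of Loxl3, which encodes a lysyl oxidase-like enzyme of collagen crosslinking, added up to a whole number within 0.011 counts, such as 248.23 and 21.77 in MI4KO replicate 1. Loxl3 is the neighbour of Htra2 and lies on the other strand. Of 1676 windows of 50 bases in the Htra2 transcript, 397 (23.7%) also occur in Loxl3 transcripts, all of them on the opposite strand, and 2 windows occur in Aup1. The libraries came from a stranded kit, but reads had been divided between genes on opposite strands, so the counting did not separate the strands here. Htra2 received 91.9%, 89.7% and 86.9% of the shared sum in MI4KO replicates 1, 2 and 3. In the MI4OE replicates it received 85.5%, 82.1% and 85.2%, each below each MI4KO library. When both genes were added into 1 before the fit, the log2 fold change was 0.49 (edgeR quasi-likelihood test, adjusted p 0.778), against 0.41 for Htra2 alone. Loxl3 itself went from 1.17 ± 0.497 to 2.39 ± 0.708 CPM (SD, n = 3 each), with an adjusted p of 0.612.

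The same point bears on Htra4. Its transcript shares 650 of 2131 windows of 50 bases (30.5%) with Gm16933, a long noncoding RNA gene of GENCODE on the opposite strand, which the count table does not list. Reads from Gm16933 in this stretch would have been counted as Htra4, and the files do not tell them apart. The other windows of Htra4 matched no other gene, and those of Htra1 and Htra3 matched none at all. Exon 2 of Htra4 is shown as an example of the shared part, since the whole exon lies inside an exon of Gm16933. Its coordinates are chr8:25037939-25038038 of GRCm38, and the 100 coding bases are given 5′ to 3′ for Htra4, which is on the minus strand.
Htra4 exon 2, NM_001081187: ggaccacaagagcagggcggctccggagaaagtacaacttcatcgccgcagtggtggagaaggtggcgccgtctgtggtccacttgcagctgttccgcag

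**Figure D3:**
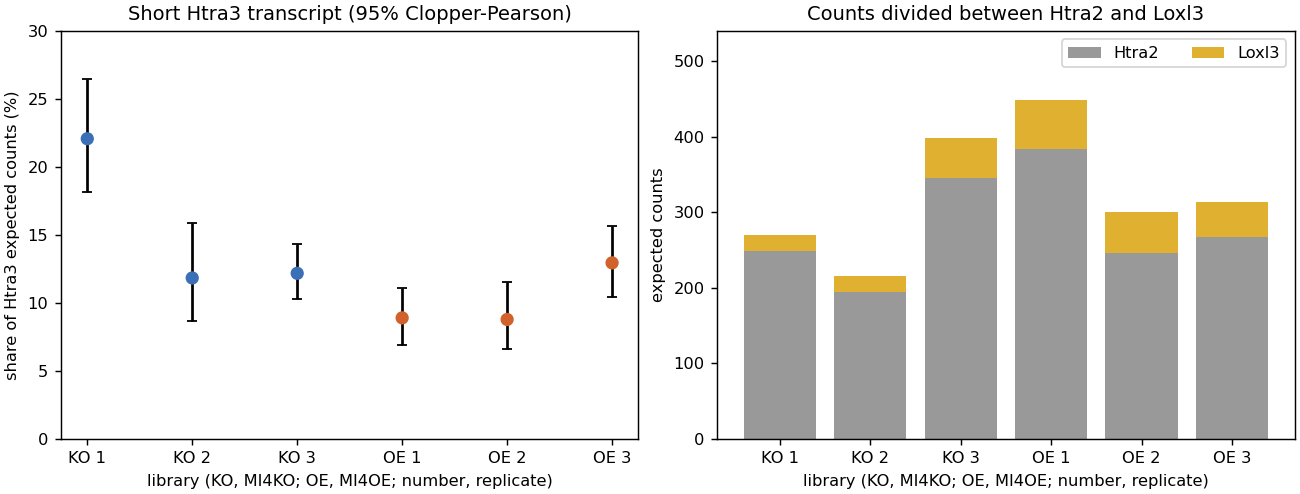
Left, share of Htra3 counts given to the short transcript in each library (vertical axis, percent; bars, exact Clopper-Pearson 95% intervals), highest in MI4KO replicate 1 at 22.1% and between 8.78% and 12.9% elsewhere. Right, expected counts of Htra2 and Loxl3 stacked, whose sums of 216 to 449 are whole numbers in each library.

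The genes beside the members on the chromosome were compared in the same way. The 3 nearest tested genes on each side of each member were taken, 24 in all, in the gene order of RefSeq. None had an adjusted p under 0.05 by edgeR's quasi-likelihood test, by DESeq2 or by edgeR's exact test, and 2 had an unadjusted p under 0.05, a share close to the 7.58% of all genes. Around Htra4, Adam9, which encodes a membrane-bound metalloprotease, went from 64.8 ± 12.2 to 44.6 ± 12.8 CPM (SD, n = 3 each) with a log2 fold change of -0.54 (adjusted p 0.688). The flanking genes Tm2d2 and Plekha2 were at -0.10 (adjusted p 0.909) and -0.29 (adjusted p 0.805), and Fgfr1, a fibroblast growth factor receptor, was at 0.012 (adjusted p 0.994). Sfrp1, a secreted Wnt inhibitor, had the largest log2 value in this stretch at 1.20, with an adjusted p of 0.709.

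**Figure D4:**
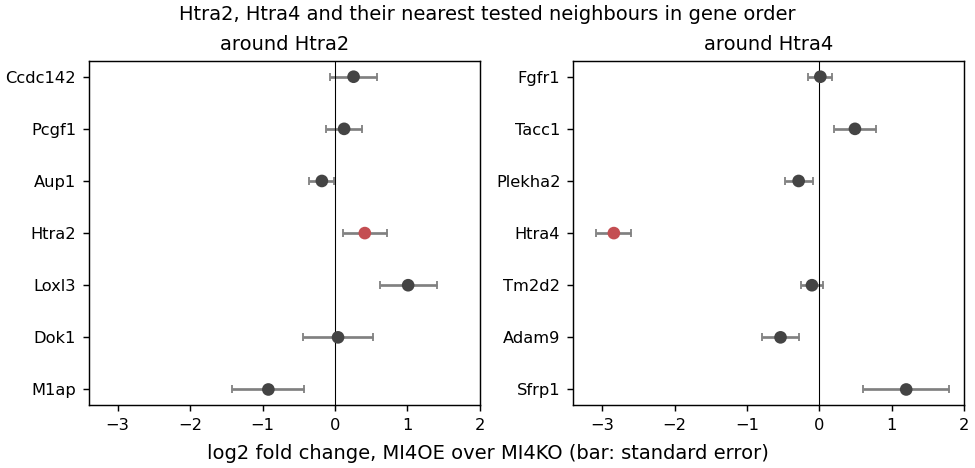
Log2 fold change of MI4OE over MI4KO (horizontal axis; bars, standard errors) for Htra2 and Htra4 in red and the 3 nearest tested genes on each side of them in dark grey, in gene order. Htra4 at -2.84 is the lowest point shown, and its neighbours lie between -0.54 and 1.20.

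Genes whose levels followed the members most closely over the 6 libraries were found by the root mean square difference between centred log2 CPM values, which depends on the same libraries and is a description. For Htra4 the nearest was Gm19299, at a distance of 0.571 log2 units, followed by Vldlr, Nrg4, Utp14b and Arhgap15. None of them was a close match. Vldlr, the very low density lipoprotein receptor, measured 367, 411 and 279 CPM in MI4KO replicates 1, 2 and 3, against 101, 136 and 90.3 CPM in the MI4OE replicates. Nrg4, a secreted ligand of ErbB4, was at 0.737, 1.98 and 2.12 CPM in the MI4KO libraries, against 0.295, 0.454 and 0.309 CPM in those of MI4OE. For Htra2 the distances were smaller, at 0.0447 for Psme1, an activator of the proteasome, 0.0456 for Uqcrc1, a subunit of respiratory complex III, and 0.0473 for Ndufa9, a subunit of complex I. Uqcrc1 reached 1365 CPM in MI4OE replicate 1 and 534 to 797 CPM in the other libraries, so it was highest where Htra2 was highest. The nearest genes were Tppp2 for Htra1, at 0.149, and Pisd-ps1 for Htra3, at 0.125. Serpinf1, which encodes the secreted serpin PEDF, was the fourth for Htra3 at 0.158.

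Proteins on which secreted HtrA proteases are known to act were looked at as a list, of which 14 of 16 genes were tested. By edgeR's quasi-likelihood test 0 passed an adjusted p of 0.05, and 5 had an unadjusted p under 0.05, all 5 higher in MI4OE, where 7.58% of all genes had such a p in either direction. DESeq2 and edgeR's exact test each called 1, Fn1, where they called 0.877% and 0.853% of all genes. The median log2 fold change of the list was 0.28, where the median of all genes tested was -4.3e-05. The summed level of the list lay the other way and overlapped, with 1053 to 1250 CPM in MI4KO and 828 to 1144 CPM in MI4OE. In MI4KO, Igfbp5 alone held 696 to 903 CPM of it, so there the sum rested mostly on this gene. Of the 14 tested genes, 11 had a log2 fold change above 0 and 3 below 0. The median was 0.17 without MI4OE replicate 1 and 0.48 without MI4KO replicate 3. Fn1, which encodes fibronectin, measured 13.6, 14.0 and 18.2 CPM in MI4KO replicates 1, 2 and 3, against 56.3, 30.2 and 37.8 CPM in the MI4OE replicates, a log2 fold change of 1.44 (adjusted p 0.422). Vtn, which encodes vitronectin, had 1.20 (adjusted p 0.521), and Fmod, the collagen-binding proteoglycan fibromodulin, had 1.34 (adjusted p 0.623). In the other direction, Igfbp5, a binding protein of insulin-like growth factors, was at 696, 903 and 735 CPM in the MI4KO libraries, against 203, 565 and 637 CPM in those of MI4OE (adjusted p 0.735). In all, 4 genes of the list were higher and 1 was lower in MI4OE without overlap between the groups, where 7.38% and 5.48% of all genes tested were.

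Markers of connective tissue and vessels were examined beside the substrates. The fibroblast markers summed to 181 to 311 CPM in MI4KO and to 295 to 428 CPM in MI4OE. The median log2 fold change of their 10 genes was 0.76. In edgeR's quasi-likelihood test 0 of them had an adjusted p under 0.05, 7 had an unadjusted p under 0.05, against 7.58% of all genes, and DESeq2 called 1, Col1a2, against 0.877%, while edgeR's exact test called 0, against 0.853%. The fibroblast sums overlapped, and 1 of the 10 genes had a log2 fold change below 0. The smooth muscle markers summed to 74.8 to 114 CPM in MI4KO and to 139 to 208 CPM in MI4OE, and the endothelial markers to 113 to 179 and 198 to 388 CPM. All 6 smooth muscle and all 9 endothelial markers had a log2 fold change above 0, and in edgeR's quasi-likelihood test 0 had an adjusted p under 0.05, and 4 and 5 had an unadjusted p under 0.05, against the same 7.58% of all genes. DESeq2 and edgeR's exact test each called 2 smooth muscle markers, Myh11 and Pdgfrb, and 0 endothelial ones, against 0.877% and 0.853% of all genes. Fibroblasts are a known source of several of the listed substrates, and the part of these cells in the values of the substrates and of Htra3 was not tested. In bulk tissue, fewer cells of a type and less RNA per cell cannot be told apart. Within MI4KO, Htra3 and the fibroblast sum were both highest in replicate 3 and lowest in replicate 2. Within MI4OE both were highest in replicate 1 and lowest in replicate 2. This order was not particular to fibroblasts. The sum of macrophage markers had it too, at 47.6, 39.6 and 70.2 CPM in MI4KO replicates 1, 2 and 3. In MI4OE that sum was 60.7, 29.5 and 55.3 CPM.

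The summed level of adipocyte markers was lower in each MI4OE library than in each MI4KO library. They summed to 408, 320 and 800 CPM in MI4KO replicates 1, 2 and 3 and to 150, 231 and 188 CPM in the MI4OE replicates. The median log2 fold change was -3.62, with -2.30 without MI4KO replicate 3 and -4.89 without MI4OE replicate 2. Of 8 markers 7 were tested, and all 7 had a log2 fold change below 0, 5 of them without overlap between the groups (5.48% of all genes tested). By edgeR's quasi-likelihood test 0 passed an adjusted p of 0.05 and 6 had an unadjusted p under 0.05 (7.58% of all genes), while DESeq2 called 1 (0.877% of all genes) and edgeR's exact test 4 (0.853%). The 3 with the largest change were Cfd, which encodes the serine protease adipsin, at -4.07 (adjusted p 0.521), Lep, which encodes leptin, at -4.01 (adjusted p 0.475), and Adipoq, which encodes adiponectin, at -3.69 (adjusted p 0.503). Within MI4KO, Cfd and Adipoq were lowest in replicate 1, at 9.46 and 9.58 CPM, and Lep in replicate 2, at 11.5 CPM. All 3 were highest in MI4KO replicate 3, at 300.1, 81.4 and 56.1 CPM for Cfd, Adipoq and Lep. In MI4KO replicate 1, Cfd, Adipoq and Lep were at 9.46, 9.58 and 17.0 CPM of a sum of 408 CPM, so other markers made up most of it. Within MI4KO, Htra4 was highest in replicate 2, at 28.5 CPM, where the adipocyte sum and Lep were lowest. It was lowest in replicate 1, at 17.6 CPM, where Cfd and Adipoq were lowest. The part of fat tissue in the difference of Htra4 was not tested. Macrophage markers summed to 39.6 to 70.2 CPM in MI4KO and to 29.5 to 60.7 CPM in MI4OE, mast cell markers to 2.50 to 3.90 and 3.64 to 7.60 CPM, and satellite cell markers to 13.8 to 28.2 and 17.3 to 23.9 CPM. Those of tendon summed to 24.0 to 60.5 and 31.5 to 102 CPM, and those of Schwann cells to 14.2 to 94.5 and 56.9 to 177 CPM. The sums overlapped between groups in each of these 5 lists, and edgeR's quasi-likelihood test, DESeq2 and edgeR's exact test called 0 of their genes. An unadjusted p under 0.05 by the quasi-likelihood test was found for 1 tendon marker, against 7.58% of all genes. The other 4 lists had 0. Median log2 fold changes were 1.13 for tendon, 1.01 for Schwann cells, 0.94 for mast cells, 0.20 for satellite cells and -0.12 for macrophages. All tested Schwann cell and mast cell markers and 6 of 7 tendon markers were above 0. The tendon median was 0.27 without MI4OE replicate 1, and the Schwann cell median 0.39 without MI4OE replicate 2.

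TGF-beta receptors, SMAD factors and target genes, which HtrA proteases are known to affect through their ligands, were centred on a log2 fold change of -0.13 (median of 14 genes). This value shrank to -0.033 without MI4KO replicate 2, to -0.031 without MI4OE replicate 1, to -0.048 with total counts and to -0.054 with limma on log2(TPM + 1). By edgeR's quasi-likelihood test 0 passed an adjusted p of 0.05, and 0 did so with DESeq2 or edgeR's exact test. Of the 2 with an unadjusted p under 0.05, against 7.58% of all genes, Smad7, an inhibitor of the pathway, was at 0.74 (adjusted p 0.587) and Smad3, which carries the signal to the nucleus, at -0.63 (adjusted p 0.569). The list of proteins with an IGFBP segment, the segment that the secreted members share, had a median of 0.28 over 11 tested genes, with 0 past an adjusted p of 0.05 by any of these tests and 2 with an unadjusted p under 0.05, against 7.58% of all genes. These were Nov at 1.16 (adjusted p 0.556) and Igfbp6 at 0.92 (adjusted p 0.626). Wisp2 lay in the other direction at -1.08 (adjusted p 0.792). The median of this list turned to -0.051 without MI4OE replicate 1, and was 0.74 without MI4KO replicate 3, 0.42 without MI4OE replicate 3, and 0.14 and 0.17 without MI4KO replicates 1 and 2. Its summed level went the other way from the median, with 831 to 1031 CPM in MI4KO and 504 to 823 CPM in MI4OE, and Igfbp5 had the highest CPM of the list in each library.

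For the mitochondrial member, the genes of its known partners and of other mitochondrial proteases were compared. Partners of HTRA2 in apoptosis, which include its target Xiap and the processing factors Parl and Hax1, were centred on a log2 fold change of 0.0064 (median of 16 genes). None was called at an adjusted p under 0.05 in edgeR's quasi-likelihood test, DESeq2 or edgeR's exact test. These tests called 0.0237%, 0.877% and 0.853% of all genes. By the quasi-likelihood test 0 of the partners had an unadjusted p under 0.05, against 7.58% of all genes. Cycs, which encodes cytochrome c, was at 0.37 (adjusted p 0.853), with 717 CPM in MI4OE replicate 1, 306 and 388 CPM in MI4OE replicates 2 and 3, and 285 to 415 CPM in MI4KO. The other mitochondrial proteases had a median of 0.019 over 16 genes. These tests called 0 of them and 0 had an unadjusted p under 0.05, against the same shares of all genes. The largest log2 fold changes were 0.53 for Immp2l and -0.28 for Immp1l, both subunits of the inner membrane peptidase. Their adjusted p by edgeR's quasi-likelihood test was 0.853 and 0.792. Immp2l was at 15.9 CPM in MI4OE replicate 1, against 4.61 and 5.52 CPM in MI4OE replicates 2 and 3 and 3.65 to 7.25 CPM in MI4KO. Without MI4OE replicate 1 the medians of the partners and of these proteases were -0.051 and -0.047. The summed level of the proteases was 841 to 910 CPM in MI4KO and 836 to 900 CPM in MI4OE.

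**Figure D5:**
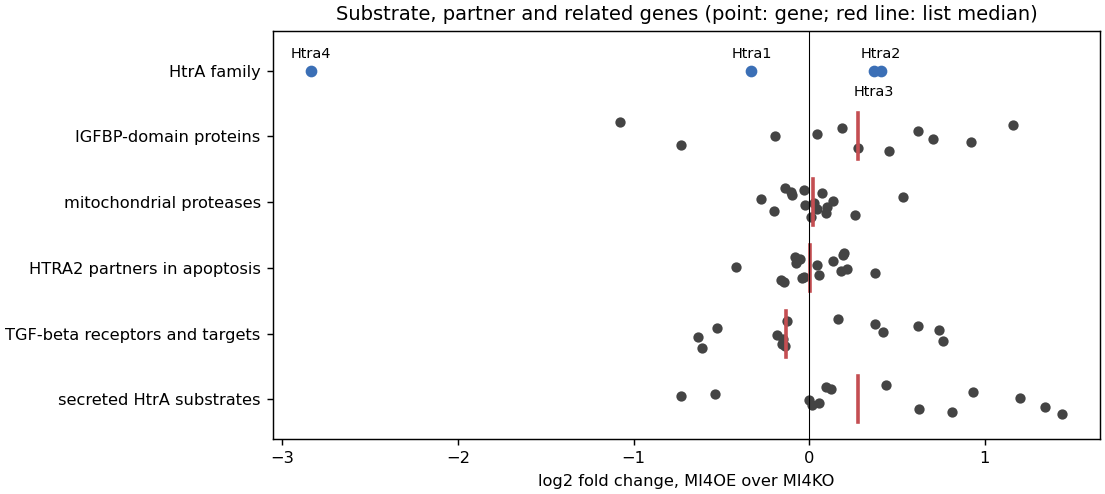
Log2 fold change of MI4OE over MI4KO (horizontal axis) for each tested gene of 5 lists, with the list median as a red line, and for the HtrA genes at the top. The lists around HTRA2 are centred near 0, at 0.0064 and 0.019, the secreted substrates and the IGFBP-domain proteins at 0.28, and Htra4 at -2.84 lies outside the range of each list.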

How the data were processed

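For single-read libraries of a stranded mRNA kit, the authors aligned reads with Bowtie2 2.1.0 against UCSC transcripts and quantified them with RSEM 1.2.15. The genome build and the strand setting are not given in the sources used here. The deposited expected counts per gene and transcript are RSEM estimates, not normalized, and the deposited TPM values are length-adjusted. Tables with the authors' edgeR fold changes, p-values and false discovery rates were not used. Expected counts, rounded to whole numbers, entered edgeR 4.0.16 under R 4.3.3 (filterByExpr with a minimum count of 10 and total of 15, TMM factors, quasi-likelihood test, Benjamini-Hochberg adjustment over 12660 genes). Standard errors were taken from the F statistic. The alternatives were other filters, scalings, DESeq2 1.42.0, edgeR's exact test, limma 3.58.1 on log2(TPM + 1) or log2(TPM + 0.1), and fits without each library. The fits were tested on simulated data. The members, lists and tests were chosen with earlier results of these data known. Groups came from the genotype label, and replicates were numbered in order of deposition. Genes were named by rule: the members, per list those past the threshold and the 3 with the largest change at a mean of 1 CPM or more, 3 tested neighbours per side, and the 5 genes nearest in profile. Igfbp5, Col1a2, Aup1, Myh11 and Pdgfrb were named after their values were seen. Transcript sequences came from GENCODE M21, matched by accession for 5 of 5 transcripts. The short Htra3 transcript has 1901 bases there and 2209 in the deposited data, and where they differ was not examined. The RefSeq promoter table held 2 members, Htra1 and Htra3.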

Additional observations from a re-analysis of the deposited data

How the results depend on the processing

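Htra4 was lower in MI4OE in 15 of 15 alternatives. Its log2 fold change was -2.32 with limma on log2(TPM + 1), where the offset weighs on the low MI4OE values, and between -2.97 and -2.59 when 1 library was left out. The adjusted p that brought the family in was under 0.05 in 8 of 15 alternatives and over it in 7, among them the fits without MI4KO replicate 1 (0.0784) and without MI4OE replicates 1, 2 and 3 (0.0747, 0.0883 and 0.202). Htra1, Htra2 and Htra3 were not called in any alternative. Without 1 library they ran from -0.75 to 0.055 for Htra1, whose sign reversed to 0.055 without MI4KO replicate 1, from 0.049 to 0.64 for Htra2, and from 0.098 to 0.91 for Htra3. The sum of Htra2 and Loxl3 was added after seeing the data. The Htra3 transcript difference was 6.01 points on TPM and 1.80 to 6.92 points without 1 library. The number of genes called, 3, became 111 with DESeq2, 108 with edgeR's exact test, 5 with limma on log2(TPM + 0.1), and 1 to 4 without 1 library. With total counts the median of all genes was 0.0896. No paired analysis was possible because the labels pair no samples and replicates were numbered in order of deposition. Counts of 62 to 90 limit the precision of Htra4 in MI4OE.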
